A study of Homo sapiens with 36 samples.

Results

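The 10 genes described here are 3 members of the FOS family (FOS, FOSL1 and FOSL2), 2 of the JUN family (JUNB and JUND), the related bZIP factor ATF3, and 4 other genes of the immediate early class (EGR1, IER3, KLF6 and PHLDA1). They were chosen by name, with earlier results of these data known, from the 20802 genes of the count table. All 10 were among the 12102 genes with enough reads to test. The cells were LoVo, an established human colorectal cancer line, grown in F-12K medium with serum. They were exposed for 24 hours to a MEK inhibitor at 0.03, 0.1, 0.3, 1, 3, 10, 30, 100, 300 or 1000 nM, or to its solvent DMSO alone. Each dose had 3 libraries, and DMSO had 3 libraries on each of 2 sequencing chips, for 36 libraries in 12 groups. Libraries were pooled 18 at a time, and the labels give the chip of the DMSO libraries only. In sample order DMSO of chip 1 stands with 0.03 to 3 nM and DMSO of chip 2 with 10 to 1000 nM. If the chips follow that order, chip and dose cannot be told apart when 1 is compared with 10 nM or 3 with 1000 nM. The labels call the replicates biological but do not say how the cultures were separated, so p-values measure the spread between these libraries.

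AP-1 is a pair of bZIP proteins, usually 1 from the FOS family and 1 from the JUN family, that binds short DNA elements as a dimer. In the RAF, MEK and ERK kinase cascade, MEK phosphorylates and activates ERK. ERK in turn phosphorylates ternary complex factors such as ELK1, which sit with serum response factor (SRF) on the control elements of FOS and EGR1 and switch these genes on within minutes of a growth signal. FOSL1 is switched on later and is often abundant in tumour cells in which this cascade is constantly active. The name "immediate early" describes that fast response, while the RNA here was taken after 24 hours of exposure and shows the state the cells had reached by then.

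The DNA element that SRF binds, the CArG box (CC, 6 bases that are A or T, then GG), was looked for in the 250 bases before the gene start, together with the CRE (TGACGTCA), its shorter form (TGACGT, which every CRE also holds), the AP-1 site (TGANTCA) and an EGR1 site (GCGTGGGCG), on both strands. RefSeq's promoter table (GRCh38.p14) held 8 of the 10 genes, with 2 starts for ATF3. It lists no entry for FOSL1 and IER3. EGR1 is shown because it fell farthest and was the only one of the 8 with a CArG box in this window, and JUND because it was the only one with a whole CRE and lay on the other side of DMSO at the high doses. Bases farther from the gene start were not searched. Whether FOS or the other genes hold a CArG box there was not tested. Capitals mark the 2 CArG boxes of EGR1 and the CRE of JUND.
EGR1, chr5:138465229-138465478, plus strand: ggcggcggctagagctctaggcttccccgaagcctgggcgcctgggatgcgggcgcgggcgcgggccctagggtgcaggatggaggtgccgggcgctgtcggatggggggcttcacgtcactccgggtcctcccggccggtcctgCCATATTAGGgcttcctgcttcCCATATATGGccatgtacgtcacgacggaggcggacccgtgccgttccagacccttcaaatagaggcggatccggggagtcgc
JUND, chr19:18281623-18281872, minus strand: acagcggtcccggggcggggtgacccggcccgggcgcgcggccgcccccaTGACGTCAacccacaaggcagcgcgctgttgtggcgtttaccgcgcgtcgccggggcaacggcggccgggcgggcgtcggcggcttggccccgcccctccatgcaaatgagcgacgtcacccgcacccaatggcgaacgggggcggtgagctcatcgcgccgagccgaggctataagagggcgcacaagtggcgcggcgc

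The CArG boxes of EGR1 lay at -105 to -96 and at -83 to -74, counted from the gene start. Of 35116 promoters of this length, 1.16% held a CArG box, and 0.607% held one with GGAA, the core that ELK1 and its relatives bind, within 20 bases on either strand. Both EGR1 boxes had such a core nearby. The CRE of JUND lay at -200 to -193, and 1.65% of promoters held one. The shorter form occurred in EGR1, FOS, FOSL2 and JUND and in 7.1% of all promoters. The AP-1 site (6.57% of promoters) and the EGR1 site (0.72%) were not among these letters in any of the 8 genes. A match is a description of the letters, not evidence of binding.

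Read depth ran from 2972186 to 4751839 counts per library, with a median of 3952427. Levels are CPM, the reads of a gene scaled to a fixed library total after TMM scaling, and a gene was called at a dose when edgeR's quasi-likelihood test gave an adjusted p below 0.05 against both DMSO groups with the same sign. No gene was called between the 2 DMSO groups (308 had an unadjusted p below 0.05, and DESeq2 called 2). The farthest libraries of the 3 most scattered groups were the second of 0.1 nM and the first of 1 nM and of 1000 nM, by replicate number, with a median deviation over genes of 0.152, 0.190 and 0.177 from their group mean on the log2 scale. Replicate 3 of 1000 nM was at 0.159, and no other library was above 0.140. All 11 epithelial markers had reads in every group, and their summed level was between 3994 and 4206 CPM in the DMSO libraries and between 4325 and 4743 CPM at 1000 nM. Of the 11, 3 were called lower there (CEACAM5, KRT8 and KRT18), beside 20.7% of all genes tested. Called higher were 5 (KRT19, CDH1, CDX1, CDX2 and VIL1), beside 21.2%, while EPCAM was at 513 CPM in DMSO and 500 at 1000 nM. The summed level of 9 fibroblast markers rose from between 3.28 and 4.51 CPM in the DMSO libraries to between 41.0 and 42.4 at 1000 nM, through COL1A1, COL3A1 and LUM, while COL1A2, THY1, FAP and POSTN had no count in either. Of 7 blood cell markers, some had no count there, among them PTPRC and CD3E, and LYZ rose. The sum of those 7 went from between 16.5 and 23.5 CPM in DMSO to between 77.8 and 95.8 at 1000 nM. The part of other cell types in the values below was not tested.

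EGR1, FOSL1, FOS and PHLDA1 were lower than in DMSO at every dose from 1 nM, IER3 at every dose from 3 nM, and KLF6 at 3, 10, 100 and 1000 nM. The other 4 genes moved less: JUNB was called lower at 10 nM alone, FOSL2 higher at 100 nM alone, JUND higher at 300 nM alone, and ATF3 at no dose. With other controls, or without some libraries, further doses of these 4 genes and of IER3 and KLF6 were called, as given with each gene. At 1000 nM EGR1 was at 5.57% of its DMSO level and FOSL1 at 13.8%, followed by FOS at 34.6% and IER3 at 48.8%, with PHLDA1 at 68.8% and KLF6 at 77.6%.

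No gene of the table was called at 0.03, 0.1 or 0.3 nM (0% of 12102). Unadjusted p-values fell below 0.05 for 42, 299 and 330 genes at these doses, and DESeq2 also called none. Fitting the libraries compared alone called 125 genes at 0.3 nM, EGR1 (adjusted p = 0.0075) and PHLDA1 (0.00631) among them, and the fit without a filter on low counts called 40. At 1 nM, 4 of the 10 genes were called lower (4.02% of all genes tested) and 0 higher (3.95%). The count was 6 lower at 3 nM (6.68%) and 7 lower at 10 nM (13.3%), with 0 higher at both (6.66% and 13.5%). At 30 nM it was 5 lower (18%) and 0 higher (18%). At 100 nM 6 were lower (18.8%) and 1 was higher (18.4%), and at 300 nM 5 were lower (23%) and 1 was higher (22.1%). At 1000 nM 6 were lower (20.7%) and 0 higher (21.2%). The share called lower was above the background at each of these doses, and it did not grow with it: the background rose from 4.02% to 23% while the count stayed between 4 and 7. The list was chosen with earlier results of these data known, so a share above the background describes these 10 genes and is not a test. The median log2 fold change of the 10 genes was -0.71 at 3 nM, its lowest, and -0.47 at 1000 nM, against 0.0034 and 0.014 over all genes tested.

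**Figure D1:**
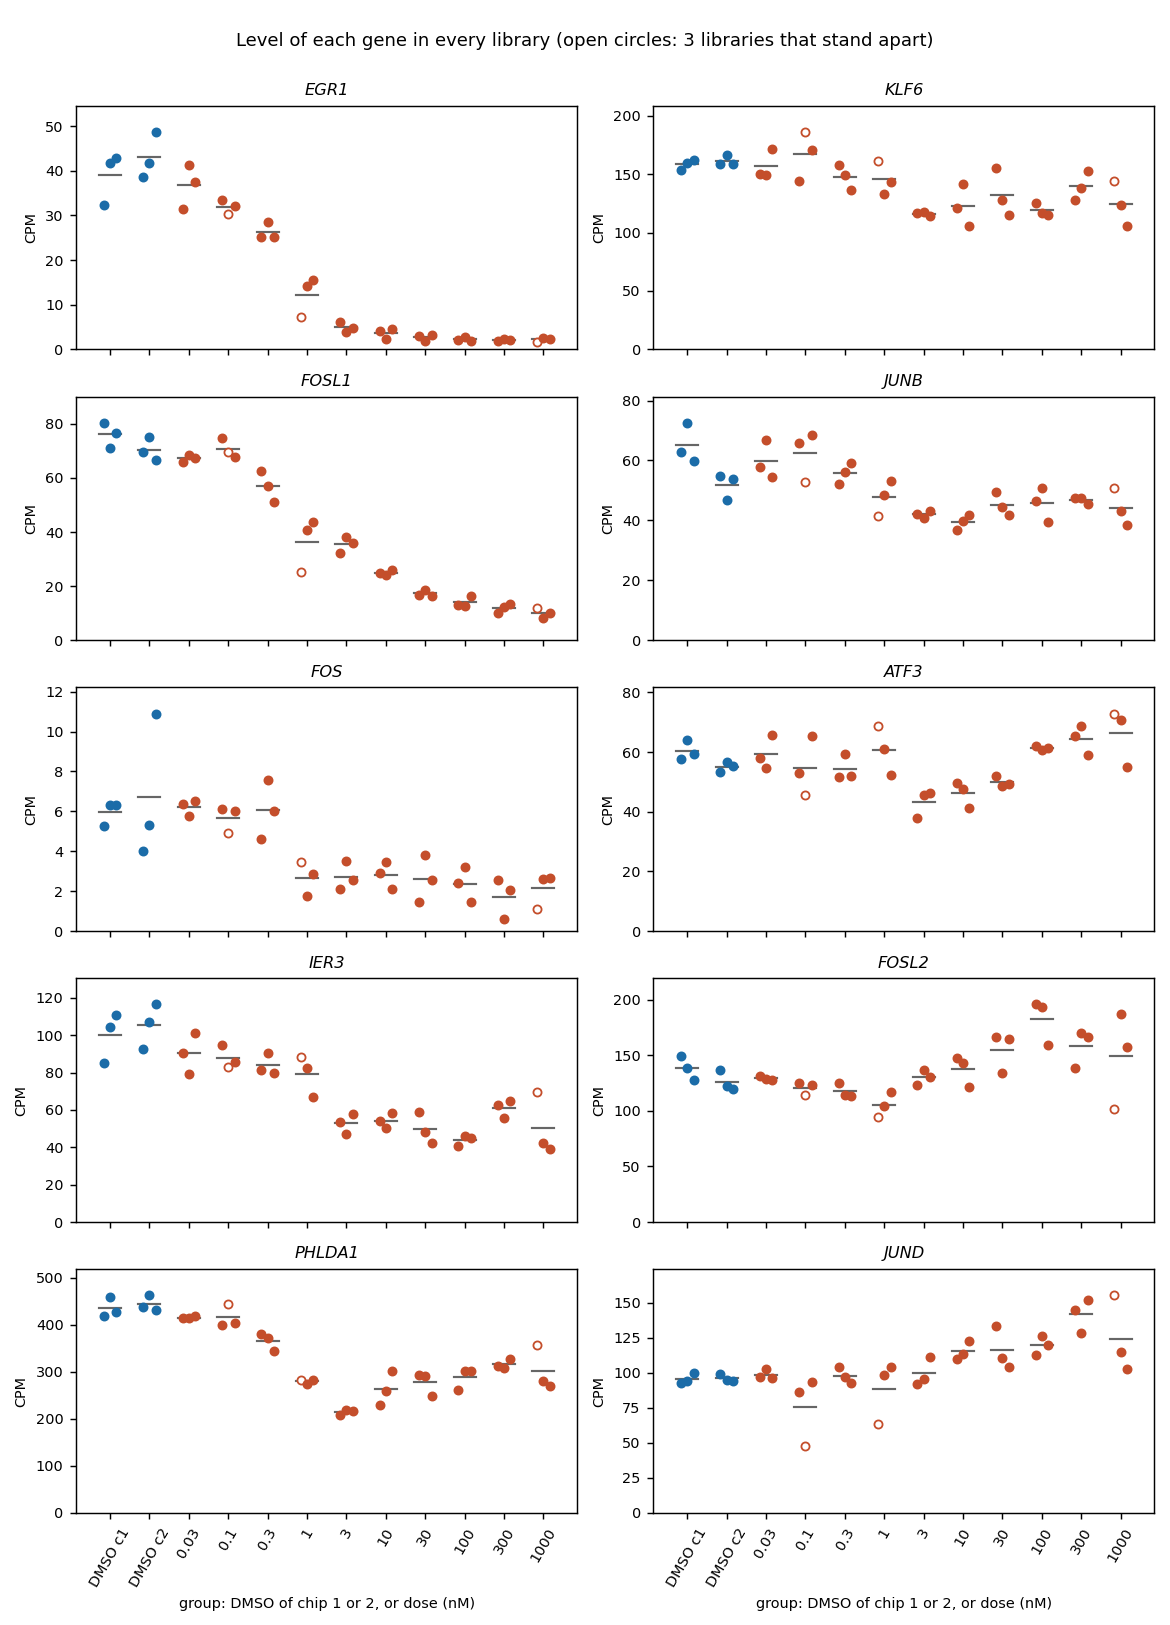
Level of each of the 10 genes (CPM, vertical axis from 0) in every library, by group: blue points are DMSO of chip 1 (c1) and chip 2 (c2), red points the 10 doses in nM, short lines the group means, and open circles the 3 libraries farthest from their group means. EGR1 and FOSL1 descend over the dose range, PHLDA1 is lowest at 3 nM, and FOSL2 and JUND lie at or above DMSO at high doses, except for 1 FOSL2 library of 1000 nM, an open circle at 102 CPM below all DMSO libraries; JUND is low in the open circles of 0.1 and 1 nM.

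EGR1 encodes a zinc finger transcription factor and had the deepest fall of the 10. In DMSO it was at 32.3, 41.8 and 42.9 CPM on chip 1 and at 38.7, 41.7 and 48.7 CPM on chip 2. At 0.1 nM its libraries held 33.5, 30.3 and 32.1 CPM, and at 0.3 nM 25.1, 28.6 and 25.2 CPM. The 0.3 nM libraries all lay below the lowest DMSO library, with a log2 fold change of -0.64 (SE 0.16) that was called in the fit of the libraries compared alone but not in the model of all groups. At 1 nM the values were 7.24, 14.1 and 15.5 CPM, a log2 fold change of -1.69 (SE 0.18, adjusted p = 1.22e-08), and the lowest was the library that stood apart. Without that library and the other 2 that stood apart, the change at 1 nM was -1.47. At 3 nM EGR1 held 6.12, 3.96 and 4.69 CPM, or 12.1% of DMSO (log2 fold change -3.04, SE 0.20, adjusted p = 1.42e-16). That was the lowest log2 fold change of all genes tested at this dose. It ranked 36th from the bottom at 1 nM, 2nd at 10 nM and 7th at 1000 nM.

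Above 3 nM EGR1 went down further, in small counts. The libraries held 4.08, 2.41 and 4.56 CPM at 10 nM and 2.90, 1.90 and 3.31 CPM at 30 nM. At 100, 300 and 1000 nM all 9 libraries lay between 1.69 and 2.67 CPM, which were 6 to 10 reads each, so this floor rests on few reads. The log2 fold change was -4.17 (SE 0.25, adjusted p = 2.06e-19) at 1000 nM, and leaving out any 1 library of the groups compared kept it between -4.29 and -4.02. EGR1 was called lower from 0.1 to 1 nM (-1.33, SE 0.18) and from 1 to 10 nM (-1.79, SE 0.26), but not from 10 to 100 nM (-0.69, SE 0.36, adjusted p = 0.307) or from 100 to 1000 nM (0.00, SE 0.42).

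FOSL1 encodes FRA-1, a FOS family protein without the strong activation domain of FOS itself. It was at 80.4, 71.1 and 76.8 CPM in DMSO of chip 1 and at 69.4, 75.0 and 66.8 CPM in DMSO of chip 2. At 0.3 nM it held 62.6, 57.0 and 51.3 CPM, all below DMSO, without a call (-0.36, SE 0.13). At 1 nM it held 25.2, 40.6 and 43.7 CPM (log2 fold change -0.98, SE 0.13, adjusted p = 3.74e-06), with the library that stood apart again lowest. At 3 nM it was at 32.3, 38.3 and 35.8 CPM.

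FOSL1 kept falling over the higher doses, and whether its course from 10 nM up differed from that of EGR1 was not tested. It held 24.8, 24.1 and 26.1 CPM at 10 nM, and 16.8, 18.5 and 16.5 CPM at 30 nM. At 100 nM the libraries held 13.1, 12.8 and 16.5 CPM, at 300 nM 9.99, 12.3 and 13.4 CPM, and at 1000 nM 11.8, 8.19 and 10.1 CPM. The groups of 10 and 100 nM did not overlap, while those of 300 and 1000 nM did. The change at 1000 nM was -2.86 (SE 0.16, adjusted p = 3.16e-20), which left 13.8% of the DMSO level. It was called lower in each of the first 3 10-fold steps: -0.93 (SE 0.13) from 0.1 to 1 nM, -0.57 (SE 0.15) from 1 to 10 nM and -0.82 (SE 0.17, adjusted p = 0.000978) from 10 to 100 nM. The last step, of -0.49 (SE 0.19, adjusted p = 0.699), was not called. The call from 1 to 10 nM was lost without replicate 3 of 1 nM (-0.43, adjusted p = 0.0565), or with a fit of those 6 libraries alone (adjusted p = 0.0837).

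FOS, the first known immediate early gene of the family, had few reads: its DMSO libraries held 21, 25 and 23 reads on chip 1 and 13, 17 and 32 on chip 2. As levels these were 5.26, 6.30 and 6.33 CPM on chip 1, and 3.99, 5.33 and 10.9 CPM on chip 2. Up to 0.3 nM FOS stayed within that range. At 1 nM it held 3.45, 1.74 and 2.86 CPM, and from there to 1000 nM its libraries ranged from 0.584 to 3.81 CPM. All libraries from 1 nM up lay below all 6 DMSO libraries.

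The log2 fold change of FOS was -1.27 (SE 0.38, adjusted p = 0.0334) at 1 nM, -1.79 (SE 0.40, adjusted p = 0.000362) at 300 nM and -1.53 (SE 0.39, adjusted p = 0.00184) at 1000 nM. It was called lower from 0.1 to 1 nM (-1.12, SE 0.37, adjusted p = 0.0325) and in no later step. The calls at 1, 3, 10, 30 and 100 nM depended on replicate 3 of DMSO chip 2, the 10.9 CPM library: without it the adjusted p was 0.268, 0.263, 0.249, 0.13 and 0.0664. They were also lost at 1, 3, 10 or 30 nM without 1 or more other single libraries, among them replicates 2 and 3 of DMSO chip 1 (adjusted p between 0.0688 and 0.0904 at 1, 3 and 10 nM). The step from 0.1 to 1 nM lost its call without replicate 1 or 3 of 0.1 nM or replicate 2 or 3 of 1 nM, with an adjusted p between 0.0533 and 0.167. A fit of the libraries compared alone also lost the calls at 1 nM (adjusted p = 0.0593) and in this step (0.0641).

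FOSL2 encodes FRA-2, the closest relative of FRA-1. It went the other way at high doses, after a small dip. DMSO held 149, 139 and 128 CPM on chip 1 and 137, 122.7 and 119.6 CPM on chip 2. At 1 nM FOSL2 was at 94.8, 104.6 and 117 CPM, all below DMSO but not called (-0.32, SE 0.13, adjusted p = 0.257), though it was called lower against DMSO of chip 1 alone (adjusted p = 0.0346) or the mean of both DMSO groups (0.0348). At 100 nM it was at 196, 194 and 159 CPM, all above DMSO, and was called higher (0.47, SE 0.13, adjusted p = 0.00931). It was also called higher from 1 to 10 nM (0.38, SE 0.13, adjusted p = 0.0368) and from 10 to 100 nM (0.41, SE 0.13, adjusted p = 0.0444).

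At 1000 nM FOSL2 was at 102, 187.5 and 157.5 CPM, with the library that stood apart below all DMSO libraries and the other 2 above them. The fold change there was 0.17 (SE 0.13, adjusted p = 0.572) with that library and 0.38 (adjusted p = 0.012) without the 3 libraries that stood apart, and it was -0.03 without replicate 2 of 1000 nM. At 300 nM (0.26) it was called higher against chip 2 alone, against the mean of both DMSO groups or with the libraries compared alone (adjusted p between 0.0304 and 0.0426). The 100 nM call was lost without replicate 3 of DMSO chip 1 (adjusted p = 0.0551) or replicate 1 of 100 nM (0.0577). Both steps were lost without several single libraries: from 1 to 10 nM without replicate 1 or 2 of either dose (adjusted p between 0.0841 and 0.155), and from 10 to 100 nM without any replicate of 10 nM or replicate 1 or 2 of 100 nM (0.0647 to 0.184).

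JUNB, a JUN family partner that is itself induced by growth signals, had control libraries of the 2 chips that did not overlap, without a call between them. DMSO held 62.9, 72.6 and 59.98 CPM on chip 1 and 55.0, 46.8 and 53.8 CPM on chip 2, a log2 difference (chip 2 minus chip 1) of -0.33 (SE 0.12, adjusted p = 1). At 10 nM JUNB was at 36.7, 39.8 and 41.9 CPM, below all DMSO libraries, and was called lower (-0.56, SE 0.13, adjusted p = 0.0197). At 3 nM it was at 42.2, 40.7 and 43.1 CPM, also below all of them, with -0.47 (SE 0.13, adjusted p = 0.11). At 1000 nM it was at 50.9, 43.3 and 38.6 CPM (-0.40, SE 0.13, adjusted p = 0.152), the highest being the library that stood apart. Without the 3 such libraries JUNB was called lower at 3 nM (adjusted p = 0.0499) and at 1000 nM (-0.51, adjusted p = 0.0272).

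Against DMSO of chip 1 alone JUNB was called lower at every dose from 1 nM, for instance by -0.56 at 1000 nM (adjusted p = 0.000164), while against chip 2 the 1000 nM change was -0.23. Against the mean of both DMSO groups, or same-numbered DMSO libraries summed, it was called lower at every dose from 3 nM (adjusted p = 0.00202 and 0.00175 at 1000 nM). The labels do not give the chip of the treated libraries, so a comparison within chip could not be made. The 10 nM call was lost without replicate 1 of 10 nM or replicate 1 or 3 of DMSO chip 2 (adjusted p between 0.0619 and 0.0819). JUNB also fell from 0.1 to 1 nM (-0.38, SE 0.12, adjusted p = 0.0285), a call lost without replicate 1 or 3 of 0.1 nM or replicate 1 or 2 of 1 nM (adjusted p between 0.0605 and 0.122).

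JUND is the JUN family member that most cells express steadily. Its 6 DMSO libraries ranged from 92.9 to 99.6 CPM. It was at 109.5, 114 and 122 CPM at 10 nM, at 113, 126 and 119.6 CPM at 100 nM, and at 145, 128 and 152 CPM at 300 nM. At each dose from 10 to 1000 nM all 3 libraries lay above all 6 DMSO libraries, but JUND was called at 300 nM alone (0.57, SE 0.16, adjusted p = 0.00502). At 1000 nM, with 155, 114 and 102.5 CPM, the change was 0.37 (SE 0.16, adjusted p = 0.0723). That change was called against the mean of both DMSO groups, without TMM scaling, without a filter on low counts, with the libraries compared alone, and without replicate 3 of 1000 nM (adjusted p between 0.0157 and 0.0461).

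JUND was low in a pair of the libraries that stood apart, at 47.8 CPM in replicate 2 of 0.1 nM and 63.1 CPM in replicate 1 of 1 nM, and high in the third, at 155 CPM in replicate 1 of 1000 nM. Without those 3 its standard error at 300 nM fell from 0.16 to 0.091, since all groups share the estimate of scatter. It was then called higher at 10 nM (0.27, adjusted p = 0.0247), 30 nM (0.27, adjusted p = 0.0148), 100 nM (0.32, adjusted p = 0.00398) and 300 nM (0.57, adjusted p = 6.3e-07). At 1000 nM it was not called in that fit (0.18, adjusted p = 0.191). With the libraries compared alone JUND was also called higher at 10 nM (adjusted p = 0.0112), 30 nM (0.0175) and 100 nM (0.00163). Without a filter on low counts it was called higher at 100 nM (adjusted p = 0.0401).

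**Figure D2:**
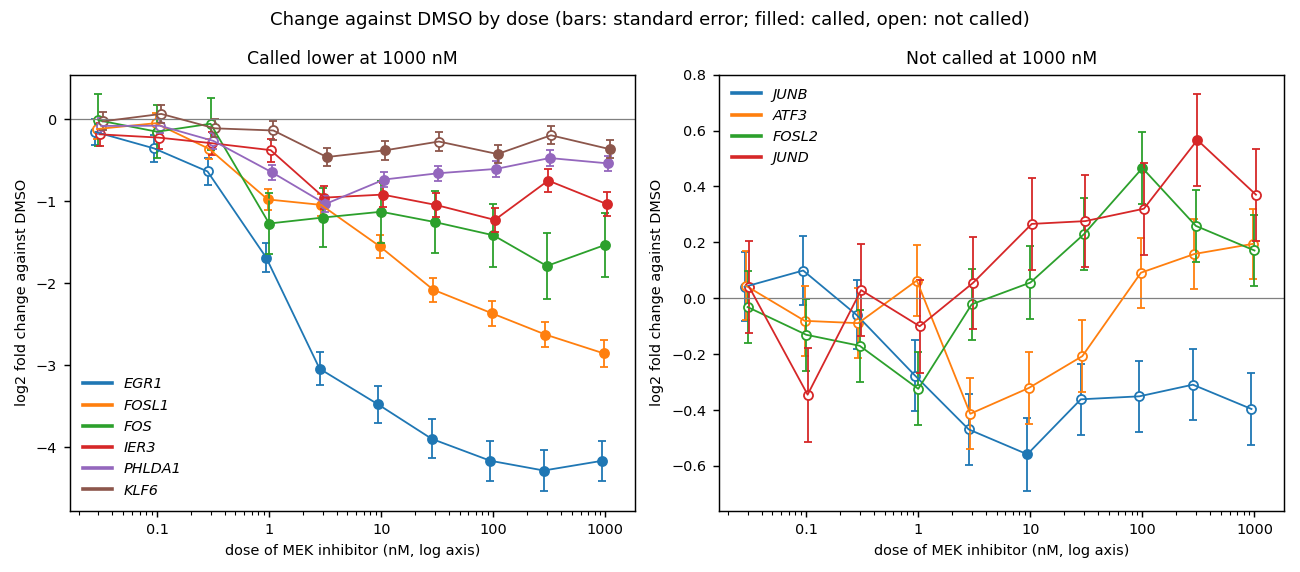
Log2 fold change of each gene against DMSO (vertical axis, mean of both DMSO groups) by dose (nM, log axis); bars are standard errors, filled points were called and open points were not. The left panel holds the 6 genes called lower at 1000 nM, from EGR1 at -4.17 to KLF6 at -0.37, and the right panel the other 4 on a narrower vertical axis, where JUND and FOSL2 are above 0 at the high doses and JUNB below.

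ATF3 encodes a bZIP factor induced by many kinds of stress, and it moved down and then up. DMSO held 57.6, 64.0 and 59.4 CPM on chip 1 and 53.5, 56.8 and 55.2 CPM on chip 2. At 3 nM it was at 38.0, 45.8 and 46.3 CPM, and at 10 nM at 49.5, 47.6 and 41.3 CPM, all below the DMSO libraries. At 1000 nM it was at 72.9, 70.8 and 55.0 CPM, of which 2 lay above all DMSO libraries. ATF3 was not called against DMSO at any dose, with -0.41 (SE 0.13, adjusted p = 0.0599) at 3 nM and 0.19 (SE 0.12, adjusted p = 0.44) at 1000 nM. The 3 nM change was called lower against chip 1 alone, chip 2 alone, their mean and the summed DMSO libraries, with the libraries compared alone, and without the 3 libraries that stood apart (adjusted p between 0.00319 and 0.0445). The 10 nM change (-0.32) was called lower against chip 1 alone, the mean and the summed DMSO libraries (adjusted p between 0.0141 and 0.0256). Between doses ATF3 was called lower from 1 to 10 nM (-0.38, SE 0.13, adjusted p = 0.0298) and higher from 10 to 100 nM (0.41, SE 0.13, adjusted p = 0.042).

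The 2 steps of ATF3 were fragile. The first was lost without the 3 libraries that stood apart (-0.30, adjusted p = 0.0985) and without replicate 1 or 2 of 1 nM or replicate 2 or 3 of 10 nM (adjusted p between 0.0633 and 0.164). The second was lost without any 1 of its 6 libraries (adjusted p between 0.0657 and 0.166). A direct comparison of 1000 with 3 nM was added after the values were seen, and starts from the lowest group of ATF3, which favours a rise. It called ATF3 higher at 1000 nM by 0.61 (SE 0.12, adjusted p = 0.000107), and by 0.53 (adjusted p = 0.000526) without the libraries that stood apart.

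IER3 encodes a small growth factor-inducible protein linked to cell survival. It held 85.4, 104 and 111 CPM in DMSO of chip 1 and 92.8, 107 and 116.5 CPM in DMSO of chip 2. At 1 nM the libraries were at 88.6, 82.7 and 66.8 CPM, overlapping DMSO, with -0.38 (SE 0.14, adjusted p = 0.131). The highest of them was the library that stood apart, and without the 3 such libraries IER3 was called lower at 1 nM (-0.46, adjusted p = 0.0187), as it was against chip 2 alone, the mean or the summed DMSO libraries (0.0228 to 0.043). At 3 nM they were at 53.6, 47.1 and 58.0 CPM, below all DMSO libraries (-0.96, SE 0.14, adjusted p = 3.21e-06). From there on IER3 stayed below all DMSO libraries, with 40.6, 45.9 and 44.95 CPM at 100 nM (-1.23, SE 0.15). At 300 nM it was at 62.7, 55.75 and 64.6 CPM (-0.75, SE 0.14), above the 100 nM libraries. At 1000 nM it was at 69.5, 42.4 and 38.8 CPM (-1.04, SE 0.15, adjusted p = 2.06e-07). The highest value at 1000 nM was that of the library that stood apart, and without the 3 such libraries the change was -1.34. It was called lower from 1 to 10 nM (-0.54, SE 0.15, adjusted p = 0.00788), but not without replicate 1 of 1 nM (adjusted p = 0.0523) or replicate 2 of 10 nM (0.0525).

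PHLDA1 encodes a protein with a pleckstrin homology-like domain. In DMSO it was at 417, 459 and 427 CPM on chip 1 and at 438, 462 and 432 CPM on chip 2. It fell early and then came back in part. It was at 283, 275 and 283 CPM at 1 nM (-0.65, SE 0.095, adjusted p = 7.68e-06) and at 207, 219 and 217 CPM at 3 nM (-1.03, SE 0.096, adjusted p = 9.16e-12), the lowest group. At 300 nM it was at 313, 308.5 and 327 CPM and at 1000 nM at 358, 280.2 and 269 CPM (-0.54, SE 0.095, adjusted p = 1.02e-05). All libraries from 0.3 nM up lay below all DMSO libraries. The comparison of 1000 with 3 nM, added after the values were seen, starts from the lowest group, which favours a rise. It called PHLDA1 higher at 1000 nM by 0.50 (SE 0.096, adjusted p = 5.5e-05). The planned steps from 10 to 100 nM (0.13, SE 0.096, adjusted p = 0.507) and from 100 to 1000 nM (0.07, SE 0.095, adjusted p = 0.93) were not called.

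KLF6, a zinc finger transcription factor, had a small change and held between 153 and 166 CPM in the 6 DMSO libraries. It was at 117, 117 and 114 CPM at 3 nM (-0.46, SE 0.11, adjusted p = 0.00305) and at 144, 123.2 and 106 CPM at 1000 nM (-0.37, SE 0.11, adjusted p = 0.00904). At 30 nM, with 155, 127.5 and 115 CPM, 1 library reached the DMSO range and the change of -0.27 was not called (adjusted p = 0.0647). It was called in 8 alternatives, among them both other filters, the mean of both DMSO groups and without the 3 libraries that stood apart (adjusted p between 0.0105 and 0.0484). At 300 nM all 3 libraries, at 128, 138 and 153 CPM, were below DMSO without a call (-0.20, adjusted p = 0.185). With the libraries compared alone KLF6 was called lower at that dose (-0.19, adjusted p = 0.049). The 1000 nM call was lost without replicate 3 of 1000 nM (-0.26, adjusted p = 0.0918), and the 10 nM call without replicate 3 of 10 nM (-0.28, adjusted p = 0.114).

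At 3 nM, where PHLDA1, KLF6 and ATF3 had their lowest group means, heat shock genes were high, as they were at 1 nM. The summed level of 10 of them was between 3649 and 3830 CPM at 3 nM, between 3293 and 3947 CPM at 1 nM and between 2896 and 3202 CPM in DMSO. The sum was between 2468 and 2686 CPM at 100 nM and between 2656 and 2866 CPM at 300 nM, below all DMSO libraries. Most of the sum in DMSO came from HSPD1 (1462 CPM) and HSPA8 (1074 CPM), and HSPD1 was called lower at 1000 nM (-0.64). The median log2 fold change of the 10 heat shock genes stayed above 0: 0.40 at 1 nM, 0.73 at 3 nM, 0.52 at 100 and 300 nM and 0.36 at 1000 nM. Of the 10, 4 were called higher at 1 nM (3.95% of all genes tested), 8 at 3 nM (6.66%) and 7 at 10 nM (13.5%). At 30 and 100 nM 6 were higher (18% and 18.4%), and at 300 and 1000 nM 5 were (22.1% and 21.2%). Called lower were 1 at 10, 30, 100 and 1000 nM (13.3%, 18%, 18.8% and 20.7%) and 2 at 300 nM (23%). The part of the heat shock genes in the values of PHLDA1, KLF6 and ATF3 was not tested.

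By 10-fold step, more of the 10 genes were called below 10 nM than above it. From 0.1 to 1 nM, 5 were called lower (6.87% of all genes) and 0 higher (8.16%). From 1 to 10 nM, 4 were lower (8.36%) and 1 was higher (7.06%), and from 10 to 100 nM, 1 was lower (3.35%) and 2 were higher (1.78%). From 100 to 1000 nM 0 were called in either direction, nor was any other gene but 1 (0.00826% lower, 0% higher), while 815 genes had an unadjusted p below 0.05 and DESeq2 called 1 gene. The comparison of 1000 with 3 nM called FOSL1 (-1.81, SE 0.16) and EGR1 (-1.12, SE 0.33, adjusted p = 0.0062) lower (16.2% of all genes), and ATF3 and PHLDA1 higher (17%). The EGR1 call was lost without replicate 1 of 3 nM (adjusted p = 0.052). Without the libraries that stood apart, IER3 was called lower (-0.39, adjusted p = 0.028) and FOSL2 higher (0.40, adjusted p = 0.00169) as well.

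**Figure D3:**
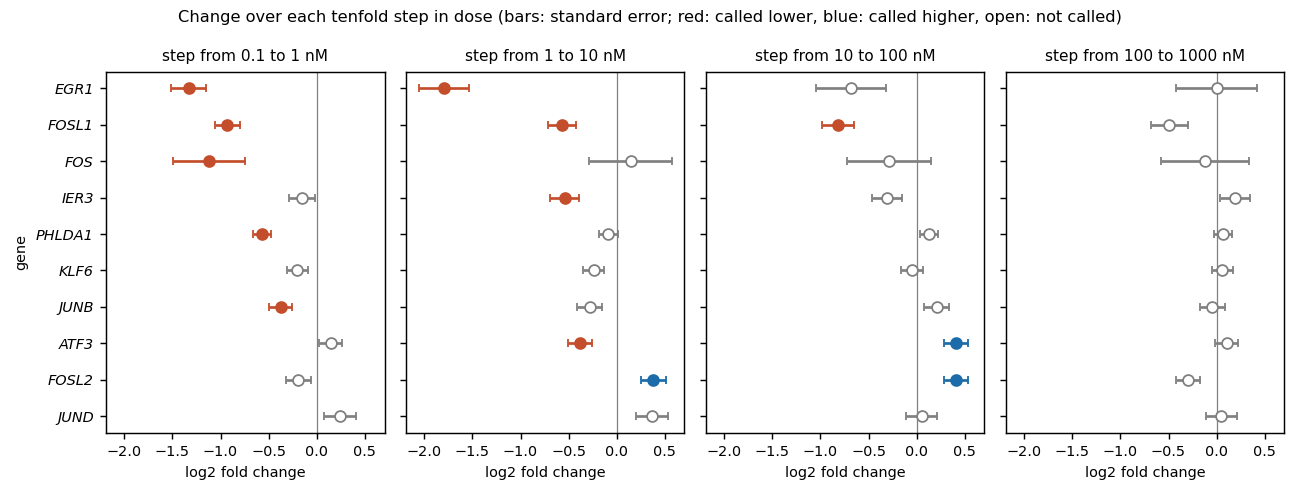
Log2 fold change (horizontal axis) of each gene over 4 10-fold steps in dose, 1 panel a step; bars are standard errors, red points were called lower, blue points higher and open points were not called. The red points are EGR1, FOSL1, FOS, PHLDA1 and JUNB from 0.1 to 1 nM, and EGR1, FOSL1, IER3 and ATF3 from 1 to 10 nM. FOSL1 is the sole red point from 10 to 100 nM, and no gene is called from 100 to 1000 nM.

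The EC50, the dose at the midpoint of the change in log2 CPM, was estimated by fitting a one-site dose curve over all 36 libraries. This was done for EGR1, FOSL1, FOS and IER3, the 4 genes that at 1000 nM were called and had changed 2-fold or more. The EC50 was 1.29 nM for EGR1 (1.13 to 1.48, the range of 1 SE), 1.04 nM for IER3 (0.667 to 1.63) and 5.20 nM for FOSL1 (4.19 to 6.46). The FOSL1 range lay above the other 2, and its curve was shallower. On the scale of levels its fall was not late: at 1 nM FOSL1 was at 50.7% of DMSO, EGR1 at 31.0% and IER3 at 77.0%. The FOSL1 estimate also lies between 3 and 10 nM, where the chip may change. Where the Hill slope was left free, it was 0.526 for FOSL1, 1.02 for EGR1 and 2.71 for IER3. With a free slope the FOSL1 estimate rose to 7.55 nM. An estimate was used when the SE of its log10 was below 0.2, a limit that IER3 met narrowly (0.194). For FOS the estimate of 0.799 nM was too loose to use (0.422 to 1.51, SE of the log10 0.277).

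Across the 12 group means, EGR1 and FOSL1 followed each other closely (Pearson's r = 0.963), as did EGR1 with FOS (0.953) and with IER3 (0.952). JUND ran opposite to FOSL1 (-0.85) and EGR1 (-0.806), FOSL2 opposite to FOSL1 (-0.701), and ATF3 was near 0 with EGR1 (0.0163). Of all genes tested, those with the pattern most like EGR1 were SNHG1, a snoRNA host gene (r = 0.996), ASNS, asparagine synthetase (0.996), and RABGGTB, a subunit of the enzyme that prenylates RAB proteins (0.996). For FOSL1 they were TRIM27, a ubiquitin ligase (0.997), NOP56, a core protein of box C/D snoRNPs (0.995), and DDX56, an RNA helicase (0.995). FOS was nearest to TRMT6, RBMX and JHDM1D (0.977 to 0.979), and IER3 to SRP72, JMJD4 and SNX5 (0.976 to 0.979). These points share libraries and a dose trend that much of the table has, so the values describe shape alone.

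Other genes of the same system were called in both directions at 1000 nM. At this dose 20.7% of all genes tested were called lower and 21.2% higher, and the counts of each list below stand beside these shares. JUN itself had 11 reads over the 6 DMSO libraries and 6 over the 3 libraries of 1000 nM, and FOSB 37 and 16, so both were too low to test. Of 15 other AP-1 and bZIP genes 5 were tested, and 1 was lower: MAFK, a small MAF protein (-1.04, SE 0.16, adjusted p = 2.82e-06). CREB1, ATF2, ATF7 and JDP2 were not called. EGR2, with 27 and 6 reads, and EGR3, with 15 and 3, were also too low to test.

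Of 31 other immediate early genes 25 were tested, with 4 lower and 9 higher and a median log2 fold change of 0.24. MYC, the growth-promoting transcription factor, fell by 2.92 (SE 0.10, adjusted p = 7.15e-28), and DUSP2, a nuclear phosphatase of ERK, fell by 2.15 (SE 0.36, adjusted p = 7.17e-06). TRIB1, a pseudokinase, rose by 0.87 (SE 0.12, adjusted p = 6.73e-08), as did BTG2, an antiproliferative gene, by 0.87 (SE 0.13, adjusted p = 1.89e-07).

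All 8 of the genes for SRF, its partners and the EGR1 corepressors NAB1 and NAB2 were tested, and 1 fell and 3 rose. ELK1, the ERK-activated SRF partner, fell by 1.03 (SE 0.31, adjusted p = 0.0206). The actin-regulated SRF partners MKL1 (1.02, SE 0.18, adjusted p = 2.69e-05) and MKL2 (0.49, SE 0.13, adjusted p = 0.00208) and the ternary complex factor ELK3 (0.73, SE 0.14, adjusted p = 4.69e-05) rose. SRF was at 0.05 (SE 0.13, adjusted p = 0.858). Of 16 kinases that act on these proteins 15 were tested, with 3 lower and 2 higher. MAPK3, which encodes ERK1, rose by 0.91 (SE 0.11, adjusted p = 2.61e-09), and RPS6KA1, which encodes RSK1, rose by 0.69 (SE 0.12, adjusted p = 6.02e-06). RPS6KA5, which encodes the chromatin kinase MSK1, fell by 1.09 (SE 0.16, adjusted p = 1.09e-07), and MAP2K1, which encodes MEK1, fell by 0.31 (SE 0.095, adjusted p = 0.0124).

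Of 18 genes known as AP-1 targets 12 were tested, with 2 lower and 6 higher and a median of 0.76. VEGFA, the vascular growth factor, fell by 2.09 (SE 0.16, adjusted p = 1.52e-15). MMP14, a membrane matrix protease, rose by 1.56 (SE 0.13, adjusted p = 2.44e-13), TIMP1, a protease inhibitor, by 0.73 (SE 0.10, adjusted p = 5.7e-08), and PLAUR, the urokinase receptor, by 0.93 (SE 0.17, adjusted p = 0.000117). These counts stand beside the 20.7% of all genes called lower and 21.2% called higher at this dose.

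**Figure D4:**
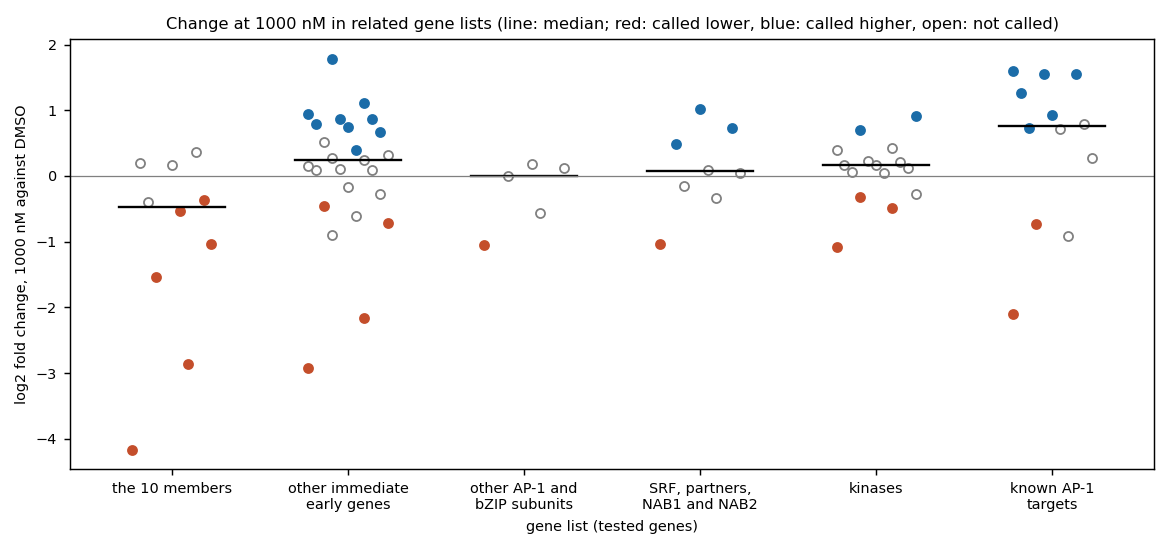
Log2 fold change at 1000 nM against DMSO (vertical axis) for the tested genes of 6 lists; each point is a gene, red called lower, blue called higher, open not called, and black lines are medians. The median is -0.47 for the 10 genes described here, 0.24 for other immediate early genes and 0.76 for known AP-1 targets, where 6 of the 12 points are blue.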

How the data were processed

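RNA from LoVo cells was reverse transcribed and amplified with the Ion AmpliSeq panel, per the labels' protocols. The authors deposited raw counts per gene, which the submitters' processing notes tie to hg19 (aligner and counter: not given in the sources used). The single files held the same counts as the table in all 36 libraries. The 10 spike-in rows held 0 counts and were left out. One model was fitted to all 12 groups with edgeR 4.0.16 (R 4.3.3, limma 3.58.1) after filterByExpr and TMM scaling, leaving 24 residual degrees of freedom. Doses were compared with both DMSO groups, the larger p was adjusted by Benjamini-Hochberg over the 12102 genes tested, and folds are against the mean of both groups, with the larger SE. DESeq2 1.42.0, other scalings, filters, controls and left-out libraries were alternatives. EC50 curves (scipy 1.17.1) used log2 CPM with a prior count of 1. The scripts were tested on simulated data. The members, the other lists, the motifs and the 3 libraries that stood apart were chosen with earlier results of these data known. Named genes are all 10 members, up to 4 called genes of each other list by adjusted p, and the 3 nearest patterns of each gene changed at least 2-fold; genes named as not called, or for low reads, and the markers were added to show their level. Counts are amplicon reads without molecular identifiers, so their number sets precision for counting error only.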

Additional observations from a re-analysis of the deposited data

Results flagged for a closer look

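FOS in replicate 3 of DMSO chip 2 was at 10.9 CPM, far above the other 5 DMSO libraries, which held 3.99 to 6.33 CPM. The gap to the nearest of them was 0.662 of the whole range, above Dixon's 95% critical value for 6 samples. All 10 genes were examined in this way over the 6 DMSO libraries, and chance flags about 1 in 20 such groups. The 6 libraries were counted as separate samples, although those of the 2 chips share replicate numbers and all 6 were closest to their own number in their deviations; the labels do not say whether a number marks the same culture on both chips. The library with the same number on chip 1 was at 6.33 CPM. The value rests on 32 reads. Without this library FOS was still called lower at 300 and 1000 nM, and lost its call at 1, 3, 10, 30 and 100 nM, as given above.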

How the results depend on the processing

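Beyond the counts, the values of single genes that were called, with all 10 genes at 1000 nM, were recomputed, so most of them could lose a call and few could gain one. There were 676 under settings other than leaving out 1 library: 654 kept their direction and their side of the threshold, 13 lost the call, 9 gained it and 0 changed sign. Calls gained at other doses, by genes not called there, are outside these numbers and are given with JUNB, ATF3, KLF6, IER3, FOSL2, JUND, EGR1 and PHLDA1 where they concern the results above. Of 507 values without 1 library, 447 kept both, 56 lost the call, 3 gained it and 1 changed sign, FOSL2 at 1000 nM, whose value ranged from -0.03036 without replicate 2 of 1000 nM to 0.373 without replicate 1. The cause was not tested in any of these.

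With the libraries compared alone in the fit, EGR1 and PHLDA1 were called lower at 0.3 nM (2 of the 10, among 125 genes), the number higher was 1 for 10 nM and 30 nM, 2 for 100 nM and 300 nM, and 1 for 1000 nM. From 0.1 to 1 nM 3 of the 10 were then lower (557 genes in all), from 1 to 10 nM 2 were lower and 0 higher (901 genes), from 10 to 100 nM 1030 genes were called, and from 100 to 1000 nM 0. Without the 3 libraries that stood apart, the number higher was 1 for 10 nM and 30 nM, 2 for 100 nM and 1 for 1000 nM. The number lower rose to 5 at 1 nM (with IER3), 8 at 3 nM (with JUNB and ATF3), 6 at 30 nM (with KLF6) and 7 at 1000 nM (with JUNB). In that fit 1 gene was called at 0.3 nM, 922 from 0.1 to 1 nM, 1118 from 10 to 100 nM, 4 from 100 to 1000 nM and 2 between the DMSO groups.

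The choice of control moved the counts of all genes. At 1 nM 965 genes were called against both DMSO groups, 1652 against chip 1 alone, 1789 against chip 2 alone, 2537 against their mean and 1824 against same-numbered DMSO libraries summed. At 3 nM the mean gave 3137 and the sums 2525 (1615 against both), and at 10 nM the mean gave 4964 (3249 against both). At 0.3 nM chip 2 alone gave 3 genes, the mean 4 and the sums 1, and at 0.03 nM chip 2 alone and the mean gave 1 each. With chip 2 alone or the mean, 2 of the 10 were higher at 300 nM, and with the mean 1 was higher at 1000 nM.

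Without a filter on low counts, 1, 4 and 40 genes were called at 0.03, 0.1 and 0.3 nM, 5 from 100 to 1000 nM and 2 between the DMSO groups. In that setting 2 of the 10 were higher at 100 nM, 1 at 1000 nM, 2 from 1 to 10 nM and 1 from 10 to 100 nM. With a minimum of 1 CPM in 3 libraries, 0 of the 10 were higher in both of those steps. Without TMM scaling 1 of the 10 was higher at 1000 nM and 1 from 10 to 100 nM, and of the genes called from 1 to 10 nM 56.3% were higher, against 45.8% with TMM. DESeq2 called 2 genes between the DMSO groups. A fitted Hill slope moved the EC50 of FOSL1 to 7.553 nM.

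Leaving out 1 library at a time, the number of the 10 called higher ranged from 0 to 1 at 100 nM, at 1000 nM, from 1 to 10 nM and from 10 to 100 nM. The number called lower ranged from 3 to 5 from 0.1 to 1 nM, from 2 to 4 from 1 to 10 nM, and from 1 to 3 between 3 and 1000 nM. The genes called ranged from 887 to 1727 from 0.1 to 1 nM, from 339 to 536 from 10 to 100 nM and from 1 to 3 from 100 to 1000 nM. The EC50 of FOSL1 ranged from 4.048 to 6.665 nM without 1 replicate of every group.

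Replicate numbers were not taken as pairs: same-numbered DMSO libraries of the 2 chips correlated in their deviations by 0.152, 0.0955 and 0.0993, with 6 of 6 closest to their own number, and 11 of 36 over all groups. With the replicate block, 1 of the 10 rather than 2 was higher from 10 to 100 nM, as FOSL2 reached an adjusted p of 0.0538. No other call of the 10 changed, and the count of all genes at 1000 nM went from 5064 to 5044. Depth limits FOS and, from 100 nM, EGR1, which had at most 12 and 10 reads a library there.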
